A study of Mus musculus with 24 samples.

Results

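The miR-297, miR-466, miR-467 and miR-669 families of the mouse were represented by 81 of the 1186 hairpins measured, taken as every hairpin whose name starts mmu-mir-297, mmu-mir-466, mmu-mir-467 or mmu-mir-669. There were 6 hairpins of miR-297, 28 of miR-466, 17 of miR-467 and 30 of miR-669, and the same name rule found 80 of the 1915 mature miRNAs. Small RNA had been sequenced from mouse liver, hepatocytes, the exosomes that hepatocytes release, and serum exosomes. Each material came from an untreated control, from acetaminophen treatment, and from acetaminophen given together with G-CSF. Acetaminophen is a drug that injures the liver at high dose, and G-CSF (granulocyte colony-stimulating factor) is a cytokine that mobilises granulocytes. Mice that gave serum and liver had received acetaminophen at 500 mg/kg, with or without G-CSF at 100 µg/kg, whereas cultured hepatocytes and their exosomes had 20 mM and 1 µg/ml. No source used here gives the strain, age, times or number of mice or cultures. Every condition was sequenced on a PGM and a Proton instrument, but the tables hold 1 column per condition, so there were no replicates and each difference below is one between particular libraries.

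For the 2 treated serum columns the treatment label used here and the sample titles and column names disagree on which received G-CSF. The column called acetaminophen below is thus the one named for G-CSF, and the reverse, and each serum result that separates them rests on that choice. Depth also set some columns apart. The 5 exosome columns other than control serum held 167.3 to 4026.1 hairpin counts, and the other 7 columns held 111315.7 to 1307522.8. Hairpins abundant in liver, a list of 10 that includes mir-122 and mir-192, made up 19.5% to 38.9% of the counts in hepatocytes and liver and 52.8% in control serum exosomes. In the 5 shallow exosome columns the same list made up 0.149% to 1.71%.

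MicroRNAs are cut as short mature strands from a hairpin precursor, and bases 2 to 8 of the strand, the seed, guide it to target transcripts. Most of these families lie in a rodent-specific cluster of repeated copies within an intron of Sfmbt2, a Polycomb-related gene that is imprinted in the placenta, and cluster members are best known from placenta and embryonic stem cells. Many of the copies contain runs of alternating CA or UG. Of the 81 hairpins, 70 lay in introns of Sfmbt2 on its strand (GRCm38, GENCODE M21, gene at chr2:10370510-10595253), spread over 51617 bases from 10466663 to 10518279. No hairpin in the table lay inside Sfmbt2 without belonging to the 4 families. The other loci held 10 members, and mir-466a was not placed. The name therefore covers the 70, not all 81. A count of 0 in all 12 columns was found for 11 hairpins, of which 7 were copies of mir-669a (mir-669a-6 to mir-669a-12), 3 of mir-467a (mir-467a-7 to mir-467a-9) and 1 was mir-466b-7.

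RefSeq's table (GRCm38.p6) matched 8 of the 80 mature members, all of them from the loci outside Sfmbt2 and none of miR-297. The 5 shown had hairpins among the leading ones of the summed shallow exosome columns, and carry runs of alternating bases. The seed is in capitals, and all sequences run 5′ to 3′.
miR-466i-3p: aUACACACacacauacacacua
miR-466q: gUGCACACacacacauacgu
miR-467f: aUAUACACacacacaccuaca
miR-466k: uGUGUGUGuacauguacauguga
miR-466j: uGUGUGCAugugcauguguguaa

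miR-466i-3p is at chr13:17747552-17747573 (plus strand), opposite to an intron of Cdk13, a cyclin-dependent kinase. miR-466q is at chr3:28419988-28420007 (plus strand), in an intron of Tnik on the same strand. miR-467f is at chr11:69635419-69635439 (minus strand), opposite to an intron of Fxr2, and miR-466k is at chr3:85467396-85467418 (plus strand), opposite to an intron of Gm37240. miR-466j is at chr10:60960802-60960824 (plus strand), in no annotated gene. No seed was shared among the 8 members with a sequence.

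The hairpin of mir-466k (chr3:85467377-85467498) shows how far the repeat extends beyond the mature strand, which is in capitals.
mir-466k: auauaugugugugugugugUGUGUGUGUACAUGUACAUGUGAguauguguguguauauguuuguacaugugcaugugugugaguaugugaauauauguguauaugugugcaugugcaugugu

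The dinucleotides CA, AC, UG and GU made up 65.3% of the dinucleotides in that hairpin, and 50% to 78.95% of those in the 8 mature members. The median over 1615 other mature miRNAs was 28%, and 40 of those (2.48%) reached 50% or more. The 8-base run CACACACA or UGUGUGUG, each the reverse complement of the other, was found in 6 of the 8 members and in 5 of the 1615 others (0.31%). The first 18 bases of miR-466i-3p occurred in the transcripts of 24 annotated genes in the sense and 20 in the antisense direction, of 53147 searched. The corresponding sense numbers were 6 genes for miR-466j, 5 for miR-467g, 3 for miR-466q and 2 each for miR-466k and miR-467f. For miR-467h and miR-669n the number was 0. The median over other mature miRNAs was also 0, and 6 of those matched over 100 genes in the sense direction. A match of letters is a description, and says nothing of where a read came from.

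The families were abundant in the 5 shallow exosome columns and scarce in the other 7. In serum exosomes, their summed hairpin counts were 60.5 in control, 41.3 with acetaminophen and 338.2 with acetaminophen plus G-CSF, which were 0.0334%, 8.98% and 8.40% of the columns. In hepatocyte exosomes the counts were 85.9, 6.70 and 13.5 in the same order, or 9.43%, 4.004% and 7.83%. Hepatocytes gave 413.2, 124.5 and 95.9 counts, or 0.0493%, 0.0692% and 0.0688%. Liver gave 1287.1, 108.3 and 885.2 counts, or 0.0984%, 0.0973% and 0.0808%. The 5 shallow columns thus ran from 4.004% to 9.43% (95% Wilson intervals from 2.05% to 13.1%) and the other 7 from 0.0334% to 0.0984%, with no overlap. Control serum exosomes sat with the cells and tissue, not with the other exosomes.

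**Figure D1:**
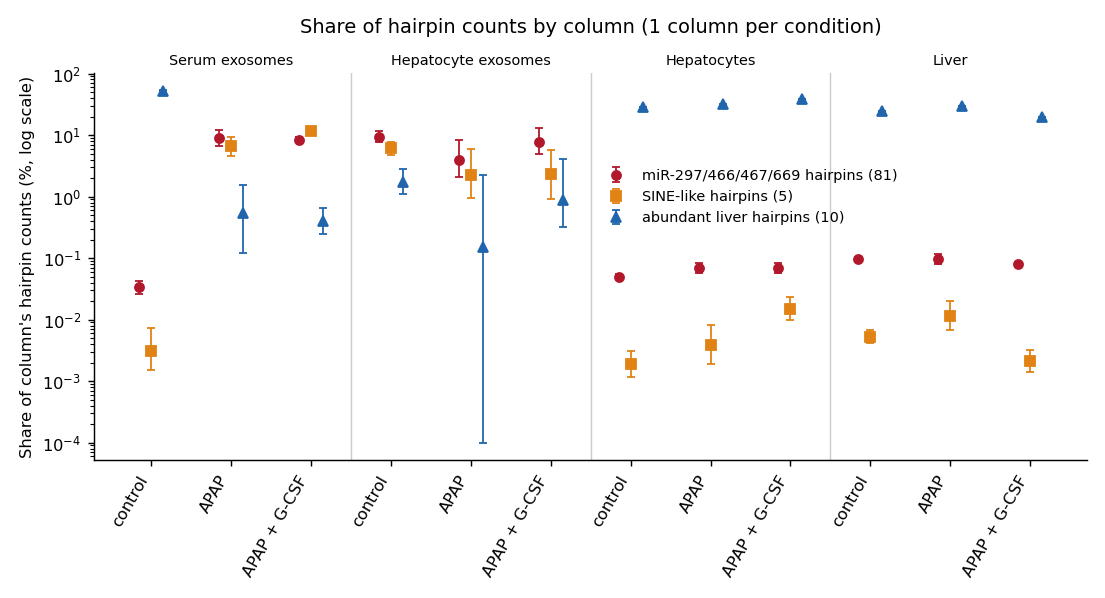
Share of each column's hairpin counts (percent, log axis) for the 4 families, 5 SINE-like hairpins and 10 hairpins abundant in liver, with 95% Wilson intervals covering counting error only (a lower bound of 0 is drawn at the bottom of the bar). APAP is acetaminophen. The families lie between 4.004% and 9.43% in 5 exosome columns and between 0.0334% and 0.0984% in the other 7.

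Depth, the liver list and another repeat-derived list all moved with this difference. The 5 entries whose sequences resemble short interspersed elements (SINEs), mir-706, mir-3470a, mir-3470b, mir-3472 and mir-5620, made up 2.28% to 11.7% of the 5 shallow columns and 0.00187% to 0.0148% of the other 7. Their part in the families' share, and that of depth, was not tested.

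The mature table split the columns the same way. The families' mature counts were 86.3 and 192.3 in the acetaminophen and acetaminophen plus G-CSF serum columns, 19.8% and 27.8% of the mature counts. In hepatocyte exosomes they were 71.9, 19.4 and 10.3, or 21.5%, 21.4% and 22%. Those columns held only 335, 91 and 47 mature counts, with 95% Wilson intervals of 17.4% to 26.2%, 13.8% to 30.3% and 12% to 34.9%. Control serum exosomes gave 1.5 counts (0.023%), hepatocytes 3, 0 and 1, and liver 17, 5 and 15.8 (0.0254% to 0.0362%). The 0 in acetaminophen hepatocytes allows a share of up to 0.0563%, from 3 counts of that column.

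In the shallow columns the members gave more mature counts per hairpin count than the other miRNAs, and in the remaining 7 columns fewer. With acetaminophen plus G-CSF in serum exosomes the ratio of mature to hairpin counts was 0.569 for members and 0.136 for all others. With acetaminophen it was 2.09 against 0.835, and in the 3 hepatocyte exosome columns it was 0.836, 2.9 and 0.764 against 0.319, 0.446 and 0.23. In control liver it was 0.0132 against 0.0378, and in control hepatocytes 0.00726 against 0.0319. These ratios pool reads that the tables assigned separately, and have no replicate error.

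A few mature strands carried much of the signal. miR-466i-3p had 13.7 and 43.4 counts in the acetaminophen and acetaminophen plus G-CSF serum columns, 7.78, 3.83 and 2 in the hepatocyte exosome columns and at most 1 in any other column. miR-669c-3p had 15.1, 42.7, 8.83, 2.33 and 3 in the same 5 columns, and miR-466f-3p had 11.4, 33.4, 6.98, 1.33 and 1.33. These 3 strands had equal values in control liver (1 each) and in acetaminophen liver (0.333 each). They are not shown to be independent, and whether they shared reads was not tested. With acetaminophen plus G-CSF in serum exosomes, miR-466i-3p, miR-669c-3p and miR-466f-3p ranked 1, 2 and 3 among all mature miRNAs, at 6.26%, 6.16% and 4.82%. miR-466i-5p, from the other arm of the mir-466i hairpin, was next among the families' strands there with 21.1 counts. It led the families in hepatocyte control exosomes with 9.48. Among all mature miRNAs it ranked 6 and 5 in these columns. Strands labelled 3p held 53.84% to 74.3% of the families' mature counts in the 5 columns.

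**Figure D2:**
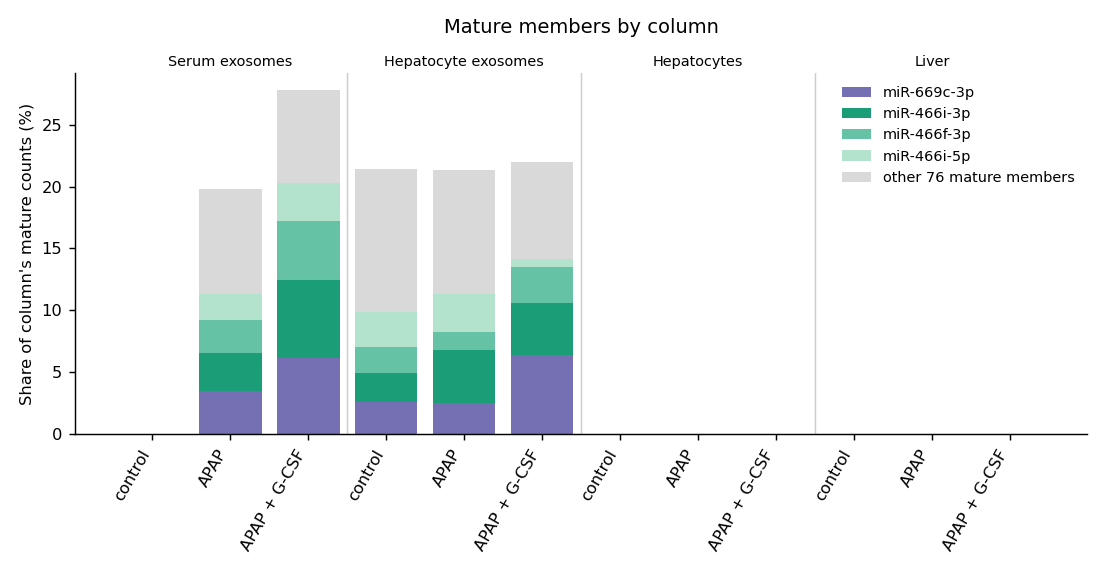
Share of each column's mature counts (percent, stacked bars) taken by 4 leading mature members and by the other 76. The families take 19.8% to 27.8% in 5 exosome columns, and the bars of the other 7 columns, at most 0.0362%, are too low to see.

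The mature and the hairpin tables ranked members differently. In the serum column with acetaminophen plus G-CSF, mir-466q had 43.9 hairpin counts and its mature strand 0.75, and mir-466k had 38.6 and 0.5. mir-669c went the other way, with 5.23 hairpin counts and 42.7 for miR-669c-3p. Values were whole numbers (tolerance 0.001) for 13.4% of the nonzero hairpin values of members and 57.2% of those of other hairpins, so most member values were fractional. A difference between near-identical members is therefore uncertain. The rows of mir-467a-10 and mir-467a-6 were identical, as were those of mir-669p-1 and mir-669p-2, and the mature rows of miR-466a-3p, miR-466b-3p, miR-466c-3p and miR-466p-3p.

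mir-669e, an Sfmbt2 member, led all 6 hepatocyte and liver columns, whereas the leading member of the shallow exosome columns varied. mir-466i led the acetaminophen serum column with 4.73 counts and the hepatocyte exosome column with acetaminophen plus G-CSF (the combination) with 1.53, and mir-466q led the combination serum column with 43.9. mir-467f led acetaminophen hepatocyte exosomes with 1.4, and mir-669c, an Sfmbt2 member, led control hepatocyte exosomes with 8.8. Over the 5 shallow columns summed, mir-466q had 55.3 counts, mir-466i 47.9, mir-466k 45.6 and mir-669h, at the far end of the Sfmbt2 cluster, 28.6. That sum is mostly the combination serum column, which supplied 43.9, 34.8, 38.6 and 20.9 of those counts. mir-466q had 0.4 and 0.2 counts in the treated hepatocyte exosome columns. The 10 members outside Sfmbt2 held 51.3% and 56.6% of the families' hairpin counts in the acetaminophen and acetaminophen plus G-CSF serum columns. They held 37.7%, 47.8% and 23.6% in hepatocyte exosomes, where Sfmbt2 members held more (61.2%, 52.2% and 74.9%), and 30.2% in control serum exosomes. In hepatocytes they held 8.08%, 18.1% and 11.1%, and in liver 8%, 11.8% and 10.1%. The hepatocyte and liver shares were all below the 6 exosome shares. Without mir-669e, the largest Sfmbt2 member, the separation was lost: the share outside Sfmbt2 was 12.1%, 50.6% and 29.2% in hepatocytes and 23.9%, 15.1% and 14.4% in liver.

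**Figure D3:**
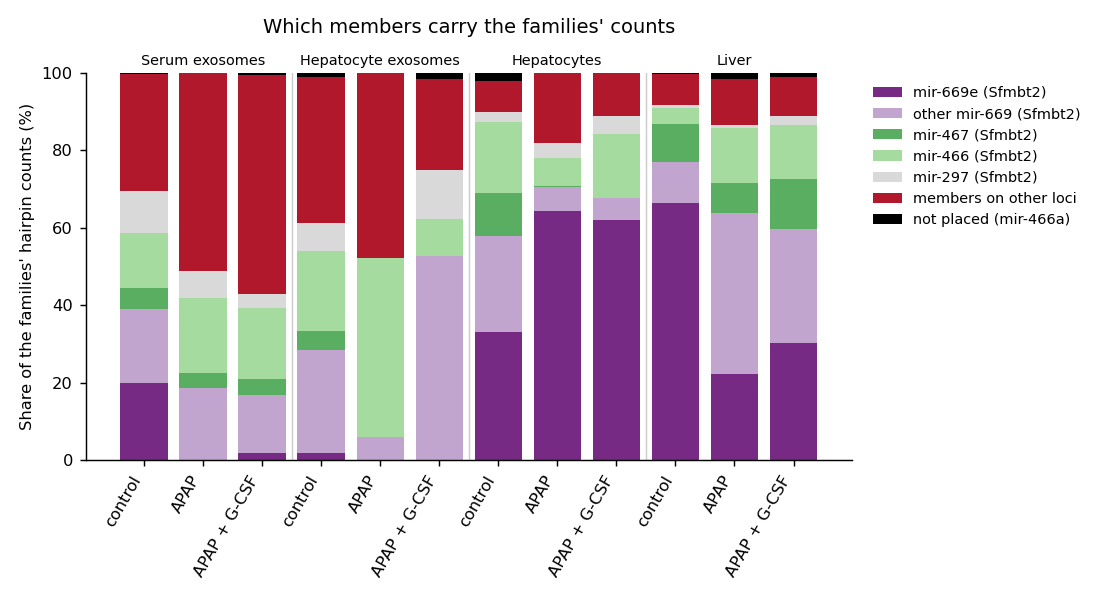
Share of the families' hairpin counts in each column (percent, stacked bars) held by mir-669e, by the other Sfmbt2 members of each family, by the 10 members on other loci and by mir-466a, which was not placed. Members on other loci hold 23.6% to 56.6% in the exosome columns, and mir-669e holds 22.15% to 66.5% in hepatocytes and liver.

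A single hairpin, mir-669e, held 48.3% of the families' counts over the 7 deep columns. It lies 832 bases from the start of the first Sfmbt2 member. Its counts were 137.1, 80 and 59.5 in hepatocytes and 856.3, 24 and 267.4 in liver for control, acetaminophen and acetaminophen plus G-CSF. Serum exosomes had 12, 0 and 6.7, and hepatocyte exosomes 1.65, 0 and 0. Its neighbours were far lower in control liver: mir-669f, just before it, had 3 counts, mir-669b, after it, 0.4, and mir-466f-1 had 5. Neither mature strand of mir-669e had a count in liver, and the 49330 mature counts of control liver allow a share of up to 0.00608%.

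**Figure D4:**
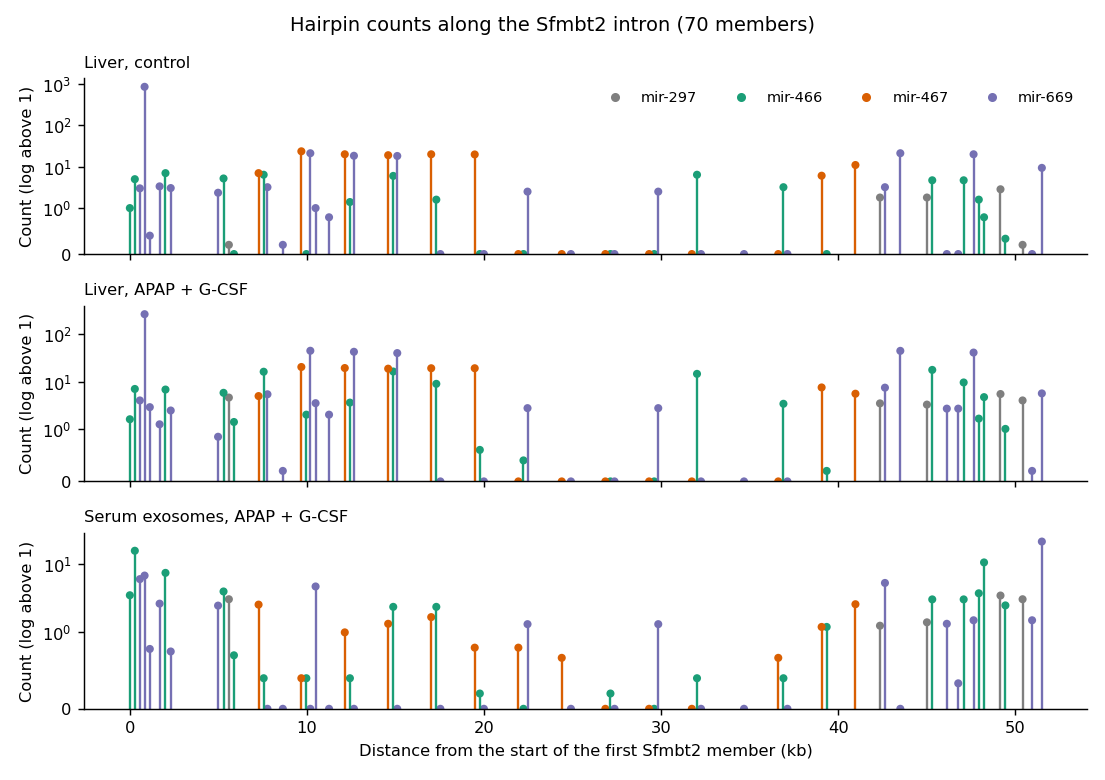
Hairpin counts (logarithmic above 1) of the 70 Sfmbt2 members by distance from the start of the first one (kb), in 3 columns; colours give the family. In liver mir-669e stands above the rest with 856.3 and 267.4 counts, and in serum exosomes with acetaminophen plus G-CSF it has 6.7.

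mir-669e differed in opposite directions in hepatocytes and liver. In hepatocytes it made up 0.0164% of control counts and 0.0445% with acetaminophen, 2.23-fold higher after TMM scaling (exact conditional 95% interval 1.67 to 2.95). In liver it made up 0.0655% of control counts and 0.0216% with acetaminophen, 3.40-fold lower (2.27 to 5.34). With acetaminophen plus G-CSF it was 2.36-fold higher than control in hepatocytes (1.71 to 3.21) and 2.88-fold lower in liver (2.51 to 3.32). The intervals cover counting error only, and the difference between materials was not tested. PCR copies cannot be removed from these counts.

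The near-identical hairpins mir-669a-1, -2, -4 and -5 and mir-669o showed the opposite pattern. Their summed counts in liver were 99, 40.2 and 214, or 0.00757%, 0.0361% and 0.0195% (95% Wilson intervals 0.00622% to 0.00922%, 0.0264% to 0.0489% and 0.0171% to 0.0223%). The hepatocyte counts were 84.4, 0 and 0.4, or 0.0101% in control, with up to 0.00167% allowed by the 0 with acetaminophen. The copies of mir-467a-1 to -4 with mir-467b gave 102.4, 5.8 and 97 counts in liver and 41.4, 0 and 0 in hepatocytes. Their liver shares were 0.00783%, 0.00521% and 0.00885%. The 95% Wilson intervals overlapped (0.00643% to 0.00947%, 0.00247% to 0.0118% and 0.00726% to 0.0108%). In control hepatocytes the share of these copies was 0.00494%, with up to 0.00167% allowed by the 0 with acetaminophen. Both sets thus had counts in control hepatocytes and none with acetaminophen, whereas in acetaminophen liver both had counts.

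**Figure D5:**
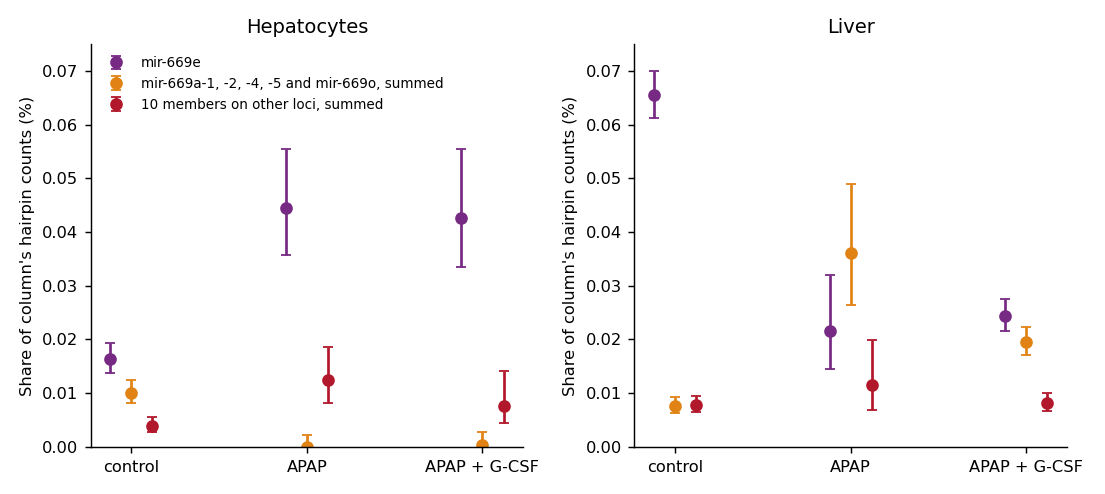
Share of column hairpin counts (percent) of mir-669e, of mir-669a-1, -2, -4, -5 and mir-669o summed, and of the 10 members on other loci summed, with 95% Wilson intervals for counting error only. mir-669e is higher in both treated hepatocyte columns (0.0445% and 0.0427%) than in control (0.0164%) and lower in both treated liver columns (0.0216% and 0.0244%) than in control (0.0655%).

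A hairpin was called different between 2 columns when 1 of them held at least 10 counts, the scaled ratio was at least 2-fold and its exact 95% interval excluded 1. In hepatocytes with acetaminophen against control, 8 members could be tested: mir-669e was higher and none was lower, against 30.6% higher and 31.3% lower of all 307 hairpins tested. mir-466f-2, mir-669a-1, -2, -4, -5 and mir-669o rounded to 0 counts with acetaminophen. A floor of 3 counts put their ratios at 0.6355 to 1.14, so the 2-fold rule could not call them lower. The median log2 ratio was -0.48 over members, which rests on these floor values, and -0.24 over all. With acetaminophen plus G-CSF against acetaminophen, 1 of 2 members tested was higher, against 8.51% higher and 14% lower of 235. This was mir-466p, with 0.6, 5 and 13.5 counts in control, acetaminophen and the combination, 3.95-fold between the last 2 (1.34 to 14). It is named after its values were seen, since it had under 30 counts. Against control, the combination gave 2 higher and 0 lower of 9, mir-669e and mir-466p, beside 27.3% and 31.7% of 293. mir-466f-2 and the mir-669a and mir-669o copies again rounded to 0 counts. The floor put their ratios at 0.897 to 1.61, so they could not be called lower here either.

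In liver with acetaminophen against control, 5 of 16 members were higher and 1 lower, against 16.9% and 18.9% of 439. The 5 were the mir-669a and mir-669o copies above, 3.99- to 4.66-fold, each with 26 to 29 counts over both columns with fractional, near-identical values, so they are not independent observations. The lower member was mir-669e. The median log2 ratio was -0.04 over members and 0.17 over all. No member of 20 passed between the combination and acetaminophen, against 17.4% higher and 13.9% lower of 380. Against control, the combination gave 10 of 22 higher and 2 lower, beside 18.3% and 22.2% of 465. The 10 included the same 5 copies, at 2.28- to 2.66-fold. Also among them were mir-466b-1, mir-466b-2 and mir-466c-1, with near-equal values (6.4, 6.4 and 6 in control, 16.2, 14.6 and 16.4 with the combination). The 10 are therefore not independent observations. Those 3 are named after their values were seen, since each had under 30 counts. The 2 lower members were mir-669e and mir-466f-4. mir-466f-4 had 11.4 counts in control and 1 with the combination.

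In serum exosomes the summed share was 269-fold higher with acetaminophen than in control (exact 95% interval 176 to 407) and 254-fold higher with the combination (192.2 to 340). These ratios compare columns of 181243 and 460.3 or 4026 counts and fell to 4.17 and 5.20 under TMM scaling. Of 1 member tested with acetaminophen against control, none was called, beside 6.57% higher and 5.05% lower of 198 hairpins. That member, mir-669e, had 0 counts with acetaminophen, and the floor of 3 counts allowed no call in either direction. With the combination against control, 11 of 11 members were higher, beside 30.9% higher and 13.6% lower of 243. All but mir-669e reached 10 counts (after rounding) only in the combination column, so their shared direction follows from the count minimum and supports nothing. mir-466q had 1.8 counts in control and 43.9 with the combination, mir-466k 5.8 and 38.6, and mir-466i 7 and 34.8. Between the 2 treated serum columns the family share ratio was 0.94 (0.68 to 1.34), and no member of 10 was called, beside 4.69% higher and 3.12% lower of 64. All 10 reached 10 counts (after rounding) only in the combination column and held at most 4.73 with acetaminophen. The absence of calls therefore does not show that the 2 columns were alike.

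For mir-669e in serum exosomes, 12 counts in control and 6.7 with the combination made a 26.3-fold higher share by column totals, but the ratio was 0.54 with TMM and 0.18 with DESeq2 size factors, so its direction depends on the scaling. In hepatocyte exosomes no member reached 10 counts, so 0 were tested, beside 12.5% higher and 0% lower of 16 hairpins with acetaminophen and 11.8% and 0% of 17 with the combination against control, and 0% and 33.3% of 3 between the treated columns. The family share there was 0.44 of control with acetaminophen (0.17 to 0.95) and 1.94 times the acetaminophen column with the combination (0.73 to 5.67). Under TMM scaling the first was 0.50 (0.19 to 1.07), an interval that includes 1. In hepatocytes the family share by column totals was 1.40 times control with acetaminophen (1.14 to 1.72) and with the combination (1.11 to 1.75). Under TMM scaling both intervals included 1, at 1.15 (0.93 to 1.4) and 1.25 (0.99 to 1.56). In liver the ratio to control by column totals was 0.99 (0.80 to 1.2) with acetaminophen and 0.82 (0.75 to 0.89) with the combination, and under TMM scaling 0.88 (0.72 to 1.07) and 0.76 (0.70 to 0.83).

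The column pattern was also seen in miR-574-5p and miR-1187, which are no members but hold the UG run. The run overlaps the seed, which is in capitals.
miR-574-5p: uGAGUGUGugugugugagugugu
miR-1187: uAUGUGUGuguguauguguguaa
miR-574-5p (chr5:64970328-64970350, plus strand) had 9.02 and 16.6 counts in the acetaminophen and combination serum columns, 7.03 in control hepatocyte exosomes and at most 4 in any deep column. miR-1187 (chr5:82798964-82798986, minus strand) had 7.22, 22.2 and 11.4 in those columns and at most 2 in the deep ones. In hepatocyte exosomes with acetaminophen and with the combination, each had only 1.28 and 0.333 counts. Of the 3 other non-members holding the motif, miR-32-3p and miR-672-5p had 0 counts in every column and miR-3082-5p at most 0.5. All 5 summed to 1.42% to 5.59% of the 5 shallow columns and 0% to 0.0122% of the other 7. The 1.42% was 0.667 counts in hepatocyte exosomes with the combination, where 3 counts are 6.38% of the mature counts.

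Materials were compared with edgeR's quasi-likelihood F-test across 306 hairpins, taking the 3 treatments as the samples of a material. Of 9 members tested, mir-466i and mir-466q were higher in hepatocyte exosomes than in hepatocytes, beside 5.88% higher and 38.9% lower of all hairpins. Serum exosomes exceeded liver for mir-466i, mir-466k and mir-466q, beside 7.52% higher and 10.1% lower. The counts behind these calls were small: mir-466i had 6.23, 0.6 and 1.53 in hepatocyte exosomes and 11, 5.8 and 2.8 in hepatocytes, and mir-466q had 7.5, 0.4 and 0.2 against 8.2, 2.6 and 2.6. In serum exosomes mir-466i had 7, 4.73 and 34.8 and in liver 20.2, 3.25 and 25.7. The control serum column was far below the treated ones: mir-466q made up 0.000993% of it, against 0.695% and 1.09%. This was also below the 0.00155% to 0.0021% that mir-466q made up in liver. mir-466i and mir-466k, at 0.00386% and 0.0032% of control serum, were above liver (at most 0.00292% and 0.00216%).

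For mir-466i the log2 difference was 4.08 (SE 1.39, edgeR quasi-likelihood, Benjamini-Hochberg adjusted p = 0.0167) between hepatocyte exosomes and hepatocytes. Between serum exosomes and liver it was 5.01 (SE 1.36, edgeR adjusted p = 0.00576). mir-466k and mir-466q differed from liver by 5.05 and 5.13 (edgeR adjusted p = 0.00355 and 0.00412). TMM scaling put the median of all hairpins at -6.89 and -1.96 in these contrasts, and column totals put it at -5.70 and -1.28. The size of the member differences depended on the scaling. With column totals, mir-466i, mir-466k and mir-466q differed from liver by 8.15, 8.08 and 8.27. Between hepatocyte exosomes and hepatocytes, mir-466q differed by 3.96 with TMM and 8.16 with column totals. There mir-466k passed with column totals (edgeR adjusted p = 0.0126) but not with TMM (edgeR adjusted p = 0.0775). Without a low-count filter edgeR called none of 68 members in either contrast. At an unadjusted p under 0.05, 6 were then higher and 1 lower in the first, and 19 higher and 0 lower in the second. Leaving out the control or combination liver column left 2 members tested, of 9, and called neither of them in either contrast. Leaving out the control or combination hepatocyte exosome column kept 9 members tested and called 0 in the first contrast. Leaving out the combination serum column left 7 members tested and 1 called in each contrast, and leaving out acetaminophen hepatocytes left 1 member called in the first.

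edgeR called no member of 9 between hepatocytes and liver, beside 1.63% higher and 4.9% lower of all hairpins, and none had an unadjusted p under 0.05 or a DESeq2 call. Over the 4 materials, edgeR called 0 members, and 0% of all hairpins in either direction, with acetaminophen against control. The same held for the combination against acetaminophen. For both, 0 members had an unadjusted p under 0.05, and DESeq2 gave 0 as well.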

How the data were processed

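Small RNA was sequenced from 4 mouse materials under 3 treatments, in 24 libraries on 2 instruments. The authors deposited estimated counts per hairpin and per mature miRNA, made from reads and not normalized, per the file headers. Each table holds 12 columns, in each of which the authors had combined 2 libraries. The aligner, the genome build and the rule for multiply matching reads: not given in the sources used here. Per the labels' protocols, a Norgen kit isolated total RNA and an Ion Total RNA-Seq Kit v2 made the libraries.

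Shares carry 95% Wilson intervals. Ratios of 2 columns carry exact conditional intervals of rounded counts. Family share ratios used column totals. Ratios of single hairpins were scaled by TMM within hepatocytes and within liver and by column totals within exosomes, with a floor of 3 counts. edgeR 4.0.16 (R 4.3.3) tested rounded counts of hairpins with at least 10 counts in at least 3 columns, with Benjamini-Hochberg adjustment over all hairpins. DESeq2 1.42.0 was an alternative. The edgeR procedure was tested on simulated data. Positions came from GENCODE M21. Named members were the 5 leading per column and table, those called with at least 30 counts over both columns, those past the edgeR threshold and any other above 1% of a column. Members and lists were chosen with earlier results of these data known. The split by position, the copy sets, the motif comparison and the comparison of the combination with control were chosen after seeing the data.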

Additional observations from a re-analysis of the deposited data

Results flagged for a closer look

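With acetaminophen against control, the ratio of the families' share by column totals was 269.1 in serum exosomes, 1.40 in hepatocytes, 0.986 in liver (0.80 to 1.2) and 0.443 in hepatocyte exosomes, the last from 6.7 counts. Under TMM scaling the intervals in hepatocytes (1.15, 0.93 to 1.4) and hepatocyte exosomes (0.499, 0.19 to 1.07) included 1, and the hepatocyte exosome ratio was 0.972 in the mature table, so opposite directions are not shown under these settings. With acetaminophen plus G-CSF against control it was 253.6 in serum exosomes, 1.40 in hepatocytes and 0.8205 in liver. For mir-669e, the ratio with acetaminophen against control was 2.23 in hepatocytes and 0.294 in liver. With acetaminophen plus G-CSF against control it was 26.3 in serum exosomes, 2.36 in hepatocytes and 0.347 in liver. Each rests on 1 column per condition, and none of these differences between materials was tested.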

How the results depend on the processing

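In the mature table the family share ratio was 642.6 for acetaminophen and 903.9 for acetaminophen plus G-CSF (the combination) against control in serum exosomes, and 1.41 between the 2 treated serum columns. It was 0.972 for acetaminophen against control in hepatocyte exosomes and 0.737 in liver, 1.44 for the combination against acetaminophen in liver, and 2.003 for the combination against control in hepatocytes. In liver the combination against control turned from 0.82 to 1.06 in the mature table. TMM scaling gave 4.17 and 5.20 for the 2 serum ratios to control, and totals without the abundant liver hairpins gave 127.7 and 120.2. For mir-669e with the combination against control in serum exosomes, the ratio was 0.539 with TMM and 0.184 with DESeq2 size factors.

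For acetaminophen against control in serum exosomes, 3 members were higher in the mature table and 11 with the treated columns exchanged. For the combination against control there, 3 were higher and 1 lower with DESeq2 size factors, 3 were higher with at least 30 counts, 4 in the mature table and 0 with the columns exchanged. The mature table gave 0 calls in every hepatocyte and liver comparison, but no member could be tested there. The largest mature count of a member in those columns was 2.2, under the minimum of 10. With at least 30 counts, hepatocytes had 0 higher for the combination against acetaminophen and 1 against control. mir-466p, with at most 13.5 counts there, was no longer tested. Liver then had 0 higher with acetaminophen, and 5 higher and 1 lower with the combination against control. The mir-669a and mir-669o copies held at most 21.2 counts in control and acetaminophen liver, so they were not tested between those columns. Without a low-count filter edgeR called 0 members in both exosome contrasts. With each column left out in turn, edgeR called 0 to 3 members in each of them.

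No paired analysis was possible because the 2 instruments of a condition had been combined in 1 column. The mature table gave no family ratio for acetaminophen against control, or for the combination against acetaminophen, in hepatocytes, where the acetaminophen column held 0. Under TMM scaling the ratios to control in hepatocytes were 1.15 (0.93 to 1.4) with acetaminophen and 1.25 (0.99 to 1.56) with the combination, and in hepatocyte exosomes 0.499 (0.19 to 1.07) with acetaminophen, all with intervals that include 1. Depth is one limit of the exosome results: the 2 shallowest columns held 167.3 and 173 hairpin counts, where 3 counts are 1.79% and 1.74% of the column.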
